A study of Drosophila melanogaster with 72 samples.

Results

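The daily course of gene expression in skeletal muscle of O1, a Drosophila melanogaster strain with delayed aging, was followed in 10 of the 72 libraries of the study. They were chosen by their strain and time labels, with 3 libraries at ZT0, 3 at ZT6, 3 at ZT12 and 1 at ZT18. ZT is zeitgeber time, the hour counted from lights on. All 12295 genes that passed a filter on low counts, of 15682 listed, entered the tests. The study also held day courses of the parental strain B3 (10 libraries), of O3, another strain with delayed aging (11 libraries), and of mhc flies, which carry the muscle driver Mhc-Gal4 (12 libraries). The labels give neither the age nor the sex of the day-course flies, and describe the comparison as one of genotype, with no treatment. The question the labels give is how the muscle clock of these populations diverged with their longevity.

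In the fly clock the transcription factors encoded by Clk and cyc switch on period (per) and timeless (tim), whose proteins later enter the nucleus and shut that activity off. The repressor vri and the activator Pdp1 act on Clk in a linked loop, cwo represses targets of Clk and cyc, and the light receptor cry triggers loss of the TIM protein at dawn. Clocks of this kind run in many fly tissues besides the brain, and their best known outputs outside the brain include enzymes of lipid and detoxification metabolism.

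The O1 libraries held 39.5 to 83.4 M reads counted to genes, so that a floor of 3 counts was 0.036 to 0.0759 CPM, the count scaled to the effective library size. Replicates of O1 differed well beyond counting noise in all 9 pairs, by a chi-square of 22.8 to 111 for each degree of freedom, and none was counted as a duplicate. Whether they are separate groups of flies is not stated in the labels, and the p-values therefore cover the spread among libraries, part of which may be technical. Summed CPM of 13 muscle markers such as Mhc, Act88F and fln ranged from 28800 to 36100. Of 25 gut markers, none at 0 in all libraries, the 23 tested summed to 16300 to 20000 CPM. They were Jonah proteases, trypsins, lysozymes, amylases, Mal-A1, Mal-B1, Npc2d and Muc68D, the last with 4420 to 5530 CPM. The 9 fat body markers summed to 4120 to 6700 CPM and the 10 hemocyte markers to 2300 to 3560 CPM. The 9 glia markers summed to 2240 to 2700 CPM and the 13 neuron markers to 1330 to 1830 CPM. The 41 cuticle markers tested summed to 667 to 930 CPM and the 8 tracheal markers to 264 to 317 CPM. The 12 testis markers summed to 0.195 to 1.02 CPM, with Mst84Da, Mst84Dd and Mst35Bb at 0 in every O1 library. The 10 accessory gland markers summed to 0.24 to 13.9 CPM and the 5 ovary markers tested to 0.915 to 1.64 CPM. The 3 yolk protein genes summed to 9.62 to 26.4 CPM and the 2 male dosage compensation markers to 651 to 852 CPM. The sex of the flies was not tested. From these sums, RNA of gut, fat body, blood cells, nerve tissue, cuticle and trachea was measured along with muscle. In bulk tissue fewer cells of a type and less RNA per cell cannot be told apart.

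The core clock ran through the O1 day, and 7 of its 8 genes differed among the times. tim stood at 228, 231 and 228 CPM at ZT0, 132, 132 and 115 CPM at ZT6, 884, 932 and 876 CPM at ZT12 and 1102.5 CPM in the ZT18 library. The groups of libraries did not overlap between any times, and the replicates of one time lay close together. The difference between the highest and the lowest time mean, here called the amplitude, was 3.13 on the log2 scale of CPM, an 8.74-fold span, with an adjusted p of 3.08e-18 in the joint edgeR quasi-likelihood test of the 4 times. The ZT18 level was 0.30 ± 0.10 (SE) log2 above that of ZT12, which did not pass the test (adjusted p = 0.171), so the peak cannot be placed between these times. per, the partner of tim, stood at 20.3, 22.0 and 19.6 CPM at ZT0, 25.1, 30.4 and 23.0 CPM at ZT6, 61.2, 58.4 and 58.8 CPM at ZT12 and 70.3 CPM at ZT18. The evening and night libraries lay above all morning ones, with an amplitude of 1.77 log2 (adjusted p = 3.06e-12).

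Among the genes of the linked loop, vri reached 510, 512 and 499 CPM at ZT12, against 200.1, 235 and 225 CPM at ZT0 and 177 to 229 CPM at ZT6, with 417 CPM at ZT18. Its amplitude was 1.27 log2 (adjusted p = 2.51e-10), and ZT12 and ZT18 did not differ beyond the test (-0.28 ± 0.12 log2, adjusted p = 0.384). Pdp1 stood at 227 to 292 CPM at ZT0, 218 to 300 CPM at ZT6, 537 to 556 CPM at ZT12 and 590 CPM at ZT18 (amplitude 1.21 log2, adjusted p = 9.76e-08). cwo was highest at ZT12 with 123 to 132 CPM, against 64.0 to 86.1 CPM at ZT0, 67.0 to 78.8 CPM at ZT6 and 90.9 CPM at ZT18. Its amplitude of 0.83 log2 was the smallest of the 7 called core genes (adjusted p = 9.11e-06). These 3 genes shared high levels at ZT12 with no overlap with ZT0 or ZT6.

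Clk and cry ran in the opposite phase. Clk stood at 29.4, 34.9 and 31.5 CPM at ZT0, 33.5, 26.9 and 32.9 CPM at ZT6, 13.4, 16.5 and 13.5 CPM at ZT12 and 11.5 CPM at ZT18. Both morning groups overlapped each other and lay above all evening and night libraries (amplitude 1.47 log2, adjusted p = 2.95e-08). cry stood at 198, 198 and 184 CPM at ZT0, 205, 261 and 202 CPM at ZT6, 110, 121 and 125 CPM at ZT12 and 55.8 CPM at ZT18. It fell by 0.91 ± 0.07 log2 at ZT12 against ZT6 (adjusted p = 2.38e-08) and fell by a further 1.09 ± 0.11 log2 at ZT18 against ZT12 (adjusted p = 6.83e-06). cyc held 20.7 to 24.5 CPM in all 10 libraries and did not pass the test (amplitude 0.16 log2, adjusted p = 0.277). Over all genes tested, 10.9% were called and the median amplitude was 0.288 log2, whereas the 8 core clock genes had a median of 1.37 log2. Of 16 further clock regulators (kinases, phosphatases, ubiquitin ligases and co-factors), 0 were called in the edgeR test (3 at an unadjusted p under 0.05, 2 with DESeq2, 1 without library C at ZT0 or B at ZT12), with a median amplitude of 0.118 log2.

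**Figure D1:**
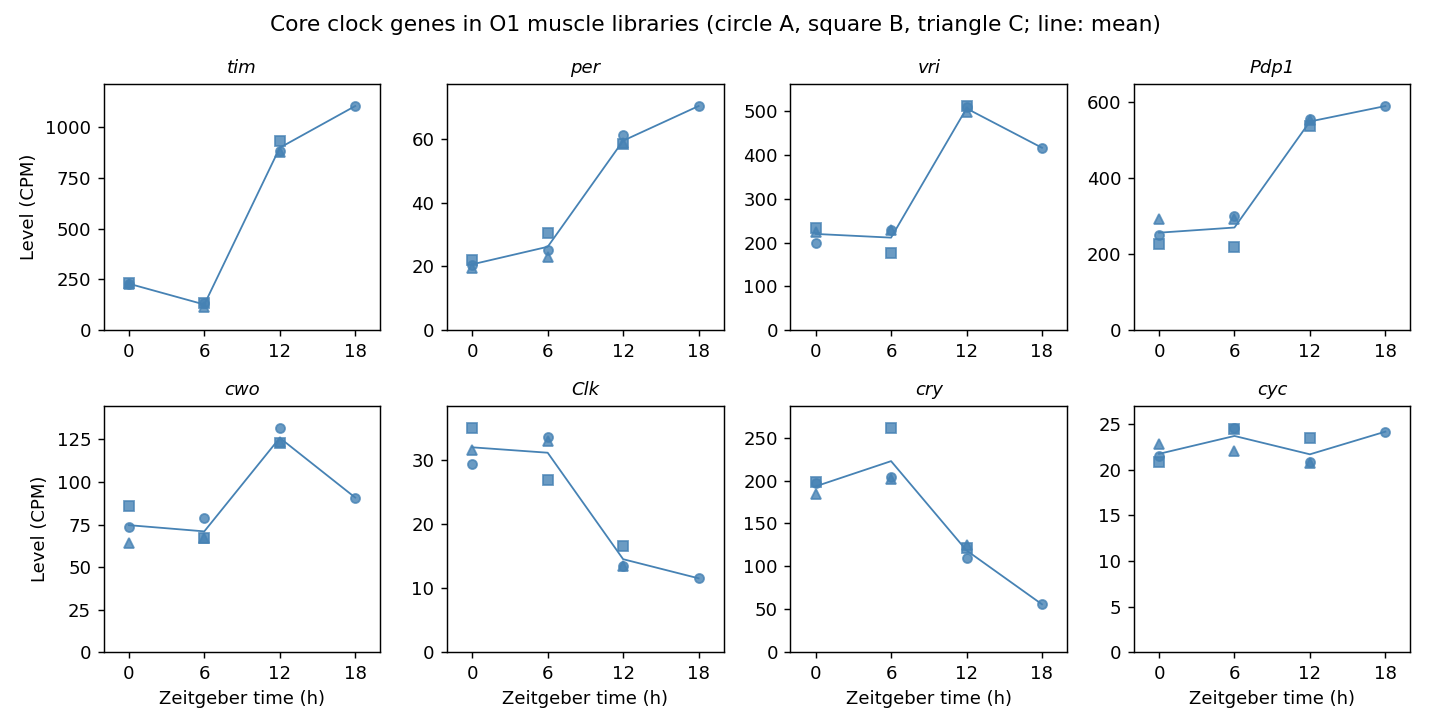
Level in CPM (vertical axes, from 0) of the 8 core clock genes against zeitgeber time in hours, with 1 point for each O1 library (circle A, square B, triangle C) and lines through the means. tim, per, vri, Pdp1 and cwo are high at ZT12 and ZT18 or at ZT12, Clk and cry are high at ZT0 and ZT6, and cyc stays between 20.7 and 24.5 CPM.

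Over the whole transcriptome 1341 of 12295 genes differed among the 4 times (10.9%). Of these, 392 had their highest mean at ZT0 (3.19% of genes tested), 389 at ZT6 (3.16%), 284 at ZT12 (2.31%) and 276 at ZT18 (2.24%). Called genes had a median amplitude of 0.602 log2, and 388 spanned at least 1 log2, a 2-fold span (3.16%). Large amplitudes were found mostly among genes with a peak in the light phase, with 158 at ZT0 (1.29% of genes tested) and 149 at ZT6 (1.21%), compared with 37 at ZT12 (0.301%) and 44 at ZT18 (0.358%). The lowest mean stood at ZT18 in 456 of the called genes, at ZT12 in 368, at ZT6 in 354 and at ZT0 in 163. The share called grew with expression level, with 3.97% in the quartile of lowest and 16.4% in that of highest level. With the 10 O1 libraries fitted alone, without the other strains' help in estimating spread, 573 genes were called, and 628 without libraries A and B at ZT12.

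ZT12 and ZT6 differed in 888 genes (7.22%), 397 higher (3.23%) and 491 lower (3.99%) at ZT12. ZT12 and ZT0 differed in 709 genes (5.77%), 279 higher (2.27%) and 430 lower (3.5%) at ZT12. ZT18 and ZT6 differed in 525 genes (4.27%), 229 higher (1.86%) and 296 lower (2.41%) at ZT18. ZT18 and ZT0 differed in 297 genes (2.42%), 71 higher (0.577%) and 226 lower (1.84%) at ZT18. ZT6 and ZT0 differed in 296 genes (2.41%), 92 higher (0.748%) and 204 lower (1.66%) at ZT6. ZT18 and ZT12 differed in 190 genes (1.55%), 76 higher (0.618%) and 114 lower (0.927%) at ZT18. These counts leaned on single libraries. The ZT12 to ZT6 count was 427 without library A, 564 without library B and 130 without both at ZT12. The ZT18 to ZT6 count was 479 to 577 without any 1 O1 library of ZT0, ZT6 or ZT12. It was 497 without A and B at ZT12, so the order of these pairs turned without library A and without both. The ZT18 to ZT6 count rests on the single ZT18 library, which could not be left out. Its narrower range therefore does not make it the firmer count. The ZT12 to ZT0 count was 392 without library A and 423 without B at ZT12, and 404 without B at ZT0. The ZT6 to ZT0 count was 169 without A at ZT0, 188 without B at ZT0 and 190 without B at ZT6, and the ZT18 to ZT12 count was 104 without B at ZT12.

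A 24-hour cosine wave through the 4 means was called in 1125 genes (9.15%), of which 1015 were also called in the joint test. The fitted peaks gathered in the early light phase, with 254 genes (22.6%) in the 3-h bin centred on 3 h, and in a lower second group of 145 and 144 genes in the bins centred on 15 and 18 h. The wave of tim peaked at 15.9 h, that of per at 14.9 h, that of cry at 4.70 h and that of Clk at 3.42 h. A 12-hour component, which a daily cosine cannot hold, was called in 110 genes (0.895%), 84 of them higher at ZT0 and ZT12 (0.683%). The 12-hour count was 68 without library B at ZT0 and 50 without library B at ZT12.

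**Figure D2:**
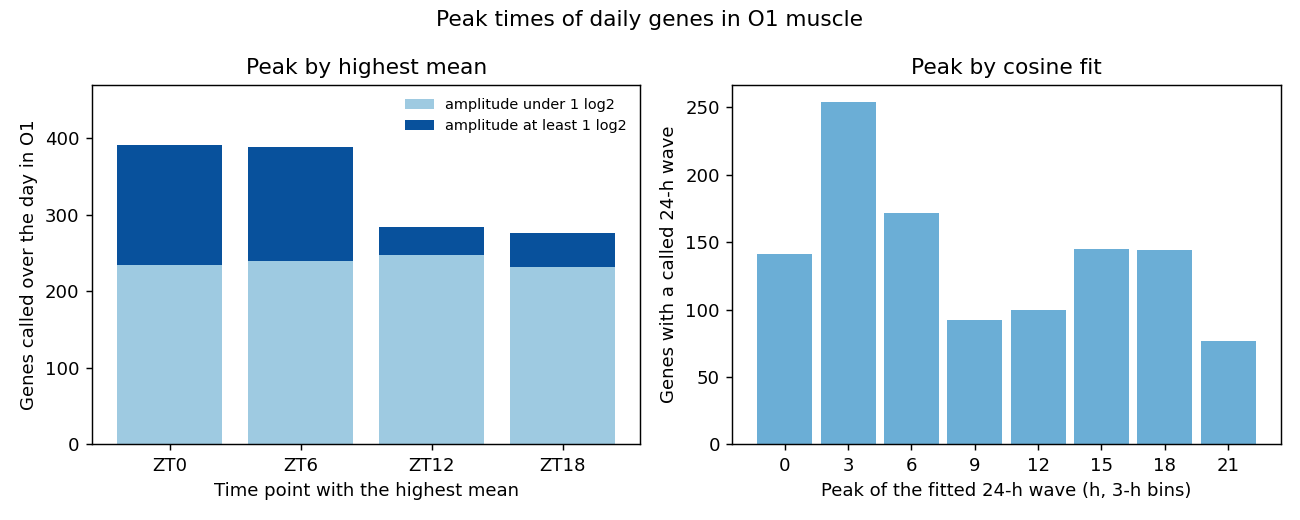
Left, the number of genes called over the day in O1 by the time of their highest mean, split by an amplitude under 1 log2 and of at least 1 log2. Right, the number of genes with a called 24-hour wave by the fitted peak in 3-h bins. The peaks at ZT0 and ZT6 hold 158 and 149 of the 388 genes of large amplitude, and the bin centred on 3 h holds 254 genes.

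Several O1 libraries stood apart from the others of their time in gene groups that were not clock genes, which touched the light-phase counts most. Among the 388 genes of large amplitude, replicates of ZT0, ZT6 or ZT12 differed at least 4-fold in 91. Of these, 50 peaked at ZT0 and 39 at ZT6, compared with 1 each at ZT12 and ZT18. With 1 library at ZT18, spread at a ZT18 peak could not be seen, so the ZT18 count is not comparable. CG9468, of a cluster of lysosomal alpha-mannosidase genes, stood at 62.1, 129 and 0.0904 CPM at ZT0 and at 0 to 0.0301 CPM in every other library. Libraries A and B at ZT0 thus stood far above library C and the rest, as they did for CG9463, CG9465 and CG9466 of the 5 cluster genes tested, whereas CG9467 held 58.1 to 68.7 CPM in all 10 libraries. lambdaTry, a trypsin gene, stood at 4.79, 14.0 and 0.45 CPM at ZT0 and at 0.0584 to 0.287 CPM in the other libraries. The chemosensory genes CheA and CheB, which encode secreted proteins of taste organs, summed to 225, 274 and 324 CPM at ZT0, 815, 547 and 393 CPM at ZT6, 24.3, 30.7 and 171 CPM at ZT12 and 134 CPM at ZT18. ZT6 lay above all other times, whereas libraries A and B at ZT12 lay far below library C. Of 20 such genes 11 were called, and 11 of 31 odorant-binding protein genes were, all with their peak at ZT6, whereas 10.9% of all genes were called and 3.16% with a peak at ZT6. These groups were chosen after their values were seen, and the part that other tissue in a sample had in them was not tested.

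**Figure D3:**
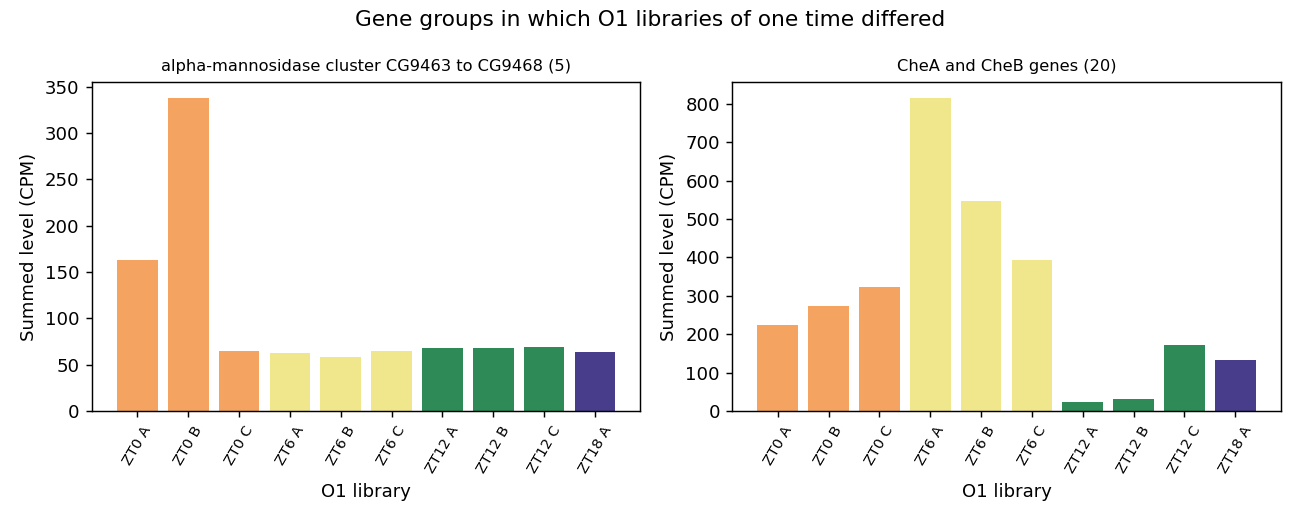
Summed level in CPM (vertical axes) of 5 alpha-mannosidase genes (left) and 20 CheA and CheB genes (right) in each of the 10 O1 libraries. The first sum is 163 and 338 CPM in libraries A and B at ZT0 and 58.1 to 68.7 CPM in the others, and the second is lowest, at 24.3 and 30.7 CPM, in libraries A and B at ZT12.

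Without libraries A and B at ZT0, 74 genes of large amplitude peaked at ZT0 in place of 158, and 96 without library B alone. Without libraries A and B at ZT12, 41 peaked at ZT6 in place of 149, and 92, 86 and 94 without library A at ZT6, A at ZT12 and B at ZT12. The total number of genes with a peak at ZT6 was 234 without library A at ZT12. Genes whose replicates agreed within 2-fold at ZT0, ZT6 and ZT12 made up 1162 of the 1341 called genes and 212 of the 388 of large amplitude. Of the 212, 77 had a peak at ZT0, 72 at ZT6, 29 at ZT12 and 34 at ZT18. The 34 had no replicate at their peak.

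At ZT0 the 5 genes of largest amplitude under the naming rule were CG31233, Jhe, CG31198, Smvt and Pdh. Jhe, the esterase that degrades juvenile hormone, stood at 20.9, 20.2 and 27.2 CPM at ZT0, 16.5, 17.1 and 14.2 CPM at ZT6, 0.625, 1.21 and 0.921 CPM at ZT12 and 0.506 CPM at ZT18. The libraries of ZT0 and ZT6 lay far above those of ZT12 and ZT18, and Jhe fell by 4.61 ± 0.23 log2 at ZT12 against ZT0 (adjusted p = 3.32e-12). Pdh, the photoreceptor dehydrogenase, stood at 14.7, 18.2 and 15.9 CPM at ZT0, 4.24, 7.47 and 4.96 CPM at ZT6, 1.36, 1.15 and 1.55 CPM at ZT12 and 2.74 CPM at ZT18. The change was -1.55 ± 0.26 log2 at ZT6 against ZT0 (adjusted p = 0.00127) and -2.03 ± 0.28 log2 at ZT12 against ZT6 (adjusted p = 5.1e-05). CG31198 stood at 83.5, 122 and 44.9 CPM at ZT0, 16.1 to 23.9 CPM at ZT6, 16.7 to 27.3 CPM at ZT12 and 2.55 CPM at ZT18 (amplitude 4.91 log2, adjusted p = 0.000293). CG31233 had 8.50 to 25.4 CPM at ZT0 and 0.136 CPM in the ZT18 library, and Smvt, a multivitamin transporter, 6.92 to 22.3 CPM at ZT0 and 0.992 CPM at ZT18. In CG31198, CG31233 and Smvt, libraries A and B at ZT0 were again above library C, their lowest value rested on the single ZT18 library, and Smvt was not called without library B at ZT0 (adjusted p = 0.0502).

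At ZT6 the rule named CG12158, Obp49a, CG9519, Obp19b and CheA87a, and 3 of them are of the chemosensory families described above. Obp19b, an odorant-binding protein gene, stood at 49.2, 60.5 and 66.5 CPM at ZT0, 168, 192 and 83.1 CPM at ZT6, 3.31, 3.46 and 36.4 CPM at ZT12 and 37.4 CPM at ZT18. Its ZT6 libraries lay above those of all other times, but library C at ZT12 matched the ZT18 library and not libraries A and B. The change at ZT12 against ZT6 was -3.30 ± 0.72 log2 (adjusted p = 0.00574). Obp19b did not pass the joint test without library B at ZT6, A at ZT12 or B at ZT12 (adjusted p = 0.0536, 0.0554 and 0.0542). CG12158 stood at 55.8, 51.8 and 23.3 CPM at ZT6 and at 0.182, 0 and 10.3 CPM at ZT12, so that its ZT12 libraries again differed widely. The fitted difference at ZT12 against ZT6 was -3.50 ± 0.92 log2, and its size depends on the library at 0. The joint test gave an adjusted p of 0.0468, and the gene was not called in 12 of 20 alternatives, among them those without library A or B at each of ZT0, ZT6 and ZT12. With replicates within 2-fold, Cyp313a1, a cytochrome P450 gene, stood at 146, 147 and 216 CPM at ZT0, 665, 400.3 and 439 CPM at ZT6, 141 to 234 CPM at ZT12 and 266 CPM at ZT18 (amplitude 1.55 log2, adjusted p = 0.00191). sxe2 had 105 to 137 CPM at ZT0, 129.7 to 231 CPM at ZT6, 42.8 to 72.3 CPM at ZT12 and 31 CPM at ZT18 (amplitude 2.35 log2, adjusted p = 0.000271).

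At ZT12 the rule named CG4576, CG18302, Jon25Bi, CG3999 and LysE. CG4576 stood at 3.87, 5.06 and 4.84 CPM at ZT0, 4.99, 3.58 and 4.42 CPM at ZT6, 16.6, 16.2 and 17.8 CPM at ZT12 and 8.44 CPM at ZT18. Its ZT12 libraries lay above all others, and the difference from ZT6 was 1.96 ± 0.16 log2 (adjusted p = 2.93e-08). CG18302 had 6.87 to 11.3 CPM at ZT0, 15.7 to 32.6 CPM at ZT6, 26.3 to 31.8 CPM at ZT12 and 28.2 CPM at ZT18, so that ZT0 alone was low (amplitude 1.67 log2, adjusted p = 2.16e-05). The digestive genes Jon25Bi, a serine protease, and LysE, a lysozyme, reached 26.4 to 41.7 CPM and 60.3 to 65.1 CPM at ZT12, with adjusted p-values of 0.0226 and 0.0367. Jon25Bi was not called without library A or B at ZT12 (adjusted p = 0.0988 and 0.111), and LysE was not called without A or C at ZT0 or without A, B or C at ZT12 (adjusted p of 0.0798 to 0.109). Both belong to families of near-identical copies whose reads may be shared, and both are gut markers, whose sum was 19100 to 20000 CPM at ZT12 and 16300 to 18700 CPM at the other times. The part of gut RNA in them was not tested.

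At ZT18 the rule named tim, CG3739, fit, CG15263 and Listericin, all but tim resting on the 1 library of that time for their height. Listericin, an antibacterial peptide gene, stood at 23.8, 24.3 and 26.2 CPM at ZT0, 13.7, 18.2 and 12.8 CPM at ZT6, 11.8, 12.7 and 12.0 CPM at ZT12 and 41.9 CPM at ZT18. ZT0 also lay above ZT6 and ZT12, with ZT6 minus ZT0 at -0.74 ± 0.16 log2 (adjusted p = 0.0156), a difference that the ZT18 library does not enter. CG3739 stood at 209 to 222 CPM at ZT0, 80.4 to 143 CPM at ZT6, 143 to 225 CPM at ZT12 and 829 CPM at ZT18 (amplitude 2.91 log2, adjusted p = 3.5e-06). fit, a satiety peptide gene of the female fat body, had 12.3 to 36.7 CPM at the other times and 70.1 CPM at ZT18 (adjusted p = 0.0114). CG15263 had 40.6 to 91.2 CPM at the other times and 215.9 CPM at ZT18 (adjusted p = 0.0306), and was not called without library A or B at ZT12 (adjusted p = 0.0581 and 0.0575).

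Genes of foreign-compound metabolism were called often and mostly in the light phase. Of all 1341 called genes, 29.2% peaked at ZT0 and 29% at ZT6. Of 77 cytochrome P450 genes 28 were called (36.4%, against 10.9% of all genes). Of the 28, 10 had their peak at ZT0, 11 at ZT6, 3 at ZT12 and 4 at ZT18. The median amplitude of all 77 was 0.58 log2, against 0.288 log2 over all genes. Without libraries A and B at ZT12 18 were called, and 23 without A and B at ZT0. Cyp6a21 stood at 37.4, 47.5 and 45.2 CPM at ZT0, 31.9 to 37.7 CPM at ZT6, 12.1, 12.6 and 12.1 CPM at ZT12 and 21.9 CPM at ZT18, with no overlap of ZT0 and ZT12 (-1.82 ± 0.13 log2, adjusted p = 2.15e-09). Cyp305a1 peaked at ZT6 with 119 to 140 CPM and was lowest at ZT18 with 61.9 CPM (amplitude 1.04 log2, adjusted p = 8.62e-08). Cyp18a1, which inactivates the steroid hormone ecdysone, ran the other way, with 19.4 to 26.9 CPM at ZT6, 40.7 to 45.0 CPM at ZT12 and 49.4 CPM at ZT18 (adjusted p = 5.32e-07).

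Of 17 UDP-glucuronosyltransferase genes, whose enzymes add sugar groups to small molecules, 8 were called (47.1%, against 10.9% of all genes). Of the 8, 4 had their peak at ZT0, 1 at ZT6 and 3 at ZT12, a light-phase share near that of all called genes. The median amplitude of all 17 was 1.2 log2. Without libraries A and B at ZT12, 5 of the 17 were called. Ugt35b stood at 151, 186 and 164 CPM at ZT0, 110, 97.0 and 110 CPM at ZT6, 34.4, 40.7 and 37.1 CPM at ZT12 and 40.1 CPM at ZT18. The times separated without overlap from ZT0 to ZT12, and the level fell by 2.16 ± 0.10 log2 at ZT12 against ZT0 (adjusted p = 6.48e-13). Ugt86Da fell to 61.8 to 69.3 CPM at ZT12 and 52.6 CPM at ZT18, against 115 to 129 CPM at ZT0 (amplitude 1.2 log2, adjusted p = 7.76e-08). Among 21 glutathione transferase genes 6 were called (28.6%), 4 with a peak at ZT0. GstE9 stood at 178 to 200.5 CPM at ZT0, 144 to 147 CPM at ZT6, 92.8 to 102 CPM at ZT12 and 90.5 CPM at ZT18 (amplitude 1.07 log2, adjusted p = 1.19e-08). GstE3 and GstE5 had amplitudes of 1.14 and 1.2 log2 and were likewise lowest at ZT18. The P450, Ugt and GstE families hold close copies, so the split of reads between neighbours is uncertain.

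Of 11 juvenile hormone genes 6 were called (54.5%, against 10.9% of all genes), 4 with a peak at ZT0 (3.19% of all genes), and 4 without libraries A and B at ZT0 or at ZT12. Besides Jhe these were the epoxide hydrolase genes Jheh1, Jheh2 and Jheh3, the response gene Kr-h1 and JhI-26. Jheh2 stood at 268 to 291 CPM at ZT0, 248 to 288 CPM at ZT6, 179.7 to 206 CPM at ZT12 and 200.6 CPM at ZT18 (amplitude 0.49 log2, adjusted p = 0.000165). Jheh3 had 119 to 133 CPM at ZT6 and 79.2 CPM at ZT18 (amplitude 0.69 log2, adjusted p = 0.00463). Kr-h1 had its highest mean at ZT18, with an amplitude of 0.48 log2 (adjusted p = 0.011). Other genes reported as rhythmic in flies, 14 in all, gave 8 calls, among them to (takeout), a feeding-related clock output with 614 to 912 CPM at ZT0 and 267 to 411 CPM at ZT6 (adjusted p = 2.03e-05). That list was chosen because its genes were known as rhythmic.

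Lipid genes peaked mostly at the start of the light phase. Of 20 lipid metabolism genes 10 were called (50%, against 10.9% of all genes). Of these, 7 had their peak at ZT0, 2 at ZT12 and 1 at ZT18. The median amplitude of all 20 was 0.345 log2. With any 1 library of ZT0, ZT6 or ZT12 left out 9 to 10 were called, and 7 without the ZT18 library. AcCoAS, acetyl-CoA synthetase, stood at 863, 743 and 809 CPM at ZT0, 506 to 569 CPM at ZT6, 495 to 597 CPM at ZT12 and 547 CPM at ZT18, so ZT0 lay above every other time (ZT6 minus ZT0 of -0.56 ± 0.07 log2, adjusted p = 6.03e-05). mdy, a triglyceride-forming acyltransferase, had 64.0 to 81.7 CPM at ZT0 and 40.0 to 42.5 CPM at ZT12 (-0.80 ± 0.11 log2, adjusted p = 2.73e-05). The fatty acid synthesis gene ATPCL was lowest in the ZT18 library, with 329 CPM, against 477 to 569 CPM at ZT0. Lsd-1, the lipid droplet coat protein perilipin, behaved similarly with 200.5 CPM at ZT18 and 327 to 488 CPM at the other times (-1.12 ± 0.17 log2 against ZT12, adjusted p = 0.000461). desat1, the acyl-CoA desaturase, was lower at ZT6 with 1940 to 2357 CPM, against 2854 to 2928 CPM at ZT0 (-0.44 ± 0.08 log2, adjusted p = 0.00145). whd, the carnitine palmitoyltransferase that brings fatty acids to mitochondria, was highest at ZT18 with 488 CPM and had 284 to 425 CPM at the other times (adjusted p = 0.00237).

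Of 23 feeding and fasting response genes 6 were called (26.1%, against 10.9% of all genes). Without libraries A and B at ZT12 3 were, where the count over all genes also fell to 628, against 1341 with them. Thor, the translation inhibitor 4E-BP, stood at 370, 386 and 406 CPM at ZT0, 257, 235 and 341 CPM at ZT6, 422, 448 and 469 CPM at ZT12 and 326 CPM at ZT18, lowest at ZT6 (ZT12 minus ZT6 of 0.68 ± 0.14 log2, adjusted p = 0.00263). fbp, of sugar synthesis, peaked at ZT0 with 108 to 134 CPM, against 77.2 to 86.3 CPM at ZT12 (-0.54 ± 0.09 log2, adjusted p = 0.000266). Pepck, the other key enzyme of sugar synthesis, had 634 to 961 CPM at ZT0, 1134 to 1664 CPM at ZT6, 808 to 854 CPM at ZT12 and 1470 CPM at ZT18 (adjusted p = 0.0246). Of 22 genes of amino acid and one-carbon metabolism 7 were called (31.8%), and 4 without libraries A and B at ZT0. hgo, of tyrosine breakdown, peaked at ZT6 with 77.0 to 89.7 CPM, against 34.2 to 58.2 CPM at ZT12 (-0.82 ± 0.14 log2, adjusted p = 0.000485).

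Of 27 chaperone genes 9 were called (33.3%, against 10.9% of all genes), 4 with a peak at ZT6 and 5 at ZT12. DnaJ-1, a co-chaperone of Hsp70, stood at 131 to 138 CPM at ZT0, 126 to 156 CPM at ZT6, 181 to 191 CPM at ZT12 and 139 CPM at ZT18 (ZT12 minus ZT0 of 0.46 ± 0.07 log2, adjusted p = 6.48e-05). Hop, which links Hsp70 and Hsp90, held 73.2 to 75.9 CPM at ZT12 and 58.2 to 65.5 CPM elsewhere (adjusted p = 0.00152). Hsp68, a stress-inducible chaperone, peaked at ZT6 with 25.1 to 29.7 CPM, against 14.8 to 17.7 CPM at ZT12 (-0.76 ± 0.14 log2, adjusted p = 0.00141). Without libraries A and B at ZT0 5 chaperone genes were called, and 2 without A and B at ZT12. Of 17 antioxidant genes 4 were called (23.5%), 2 without library A at ZT12 and 1 without A and B. Cat, catalase, held 709 to 754 CPM at ZT6 and 493 CPM at ZT18 (adjusted p = 0.0305), and was not called without library A or B at ZT6 or A at ZT12 (adjusted p = 0.0664, 0.0683 and 0.0514).

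For genes of contraction and energy supply the shares called lay between 0 and 15.4%, on both sides of the 10.9% of all genes. Of 30 sarcomere genes 3 were called (10%), all with a peak at ZT12, and the median amplitude of all 30 was 0.215 log2. Zasp52, a Z-disc protein, stood at 3426 to 3664 CPM at ZT0, 3212 to 3652 CPM at ZT6, 3764 to 4351 CPM at ZT12 and 3932 CPM at ZT18 (ZT12 minus ZT6 of 0.29 ± 0.06 log2, adjusted p = 0.00625). fln (flightin) and Strn-Mlck, a titin-related kinase, had amplitudes of 0.41 and 0.34 log2, and neither was called without library A at ZT12 (adjusted p = 0.0594 and 0.211). fln was also not called without A or C at ZT6 (0.064 and 0.0895), nor Strn-Mlck without B at ZT0 or B at ZT12 (0.055 and 0.0902). Without library A at ZT12 0 sarcomere genes were called, and 1 without library B, with adjusted p of 0.0681 and 0.0685 for Zasp52. Among 13 calcium handling genes 0 were called in the edgeR test (2 at an unadjusted p under 0.05, 1 with DESeq2, 1 without library C at ZT0), with a highest amplitude of 0.297 log2. Of 46 respiratory chain genes 4 were called (8.7%), 0 without library A at ZT0, C at ZT6 or C at ZT12, 1 without A at ZT12, and 2 without C at ZT0 or B at ZT6. Of 23 genes of glycolysis and glycogen 3 were called (13%), 1 without library A at ZT6 and 10 without B at ZT6. Of 13 citrate cycle genes 2 were called (15.4%), 1 without library A at ZT12 and 4 without B at ZT0, ZT6 or ZT12. Idh, isocitrate dehydrogenase, had the smallest p of them, with 751 to 849 CPM at ZT0, 574 to 603 CPM at ZT6, 445 to 508 CPM at ZT12 and 550.1 CPM at ZT18 (-0.72 ± 0.08 log2 at ZT12 against ZT0, adjusted p = 5.56e-07).

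In the lists of protein synthesis and turnover 0 to 5.26% of members were called, against 10.9% of all genes. Of 86 cytosolic ribosomal protein genes and 9 ubiquitin genes 0 were called in the edgeR test, 0 had an unadjusted p under 0.05 and 0 were called with DESeq2, with a median amplitude of 0.104 log2 for the ribosomal proteins. Of 71 mitochondrial ribosomal protein genes 3 were called, all with a peak at ZT18, against 6 without library A at ZT6 and 5 without C at ZT12. Of 54 translation factors and tRNA synthetases 2 were called, and 1 without library C at ZT6 or A at ZT12. Each of 7 other lists gave 1 call, namely 22 ribosome biogenesis, 27 proteasome, 19 autophagy, 28 vacuolar proton ATPase and 16 secreted muscle factor genes, 21 potassium and other ion channel genes, and 19 insulin, FOXO and TOR signalling genes. The 12 genes of nucleotide metabolism and RNA polymerase II gave 0 in the edgeR test (2 at an unadjusted p under 0.05, 0 with DESeq2). With any 1 O1 library left out, each of these 8 lists gave 0 to 3 calls. The autophagy call was Atg13, of the initiation complex, with 87.6 to 92.5 CPM at ZT12 and 71.1 to 75.3 CPM at ZT0 (0.31 ± 0.06 log2, adjusted p = 0.00371), not called in the joint test without library A at ZT12 (adjusted p = 0.0546). Among the secreted factors dpp, a BMP-type ligand, had 42 to 45.3 CPM at ZT6 and 29.4 to 31.5 CPM at ZT12 (adjusted p = 0.00018 over the 4 times). ClC-a, a chloride channel, was the ion channel call with an adjusted p of 0.0496, and was not called in 15 of 19 alternatives.

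Of 29 immune effector genes 3 were called (10.3%, near the 10.9% of all genes), and 1 without library A at ZT12. pirk, a brake on the Imd pathway, held 14.1 to 17.6 CPM at ZT6 and 6.15 to 9.79 CPM at the other times (ZT6 minus ZT0 of 1.00 ± 0.21 log2, adjusted p = 0.00941). PGRP-LB peaked at ZT12 and PGRP-SD at ZT6, with amplitudes of 0.60 and 0.97 log2, and PGRP-LB was not called without library A or B at ZT12 (adjusted p = 0.0774 and 0.0642), and PGRP-SD not without B or C at ZT6 or A at ZT12 (adjusted p = 0.0881, 0.0916 and 0.05). Of 10 hemocyte markers 3 were called (30%, against 10.9% of all genes), namely eater, vkg and Cg25C, all with a peak at ZT6 and the lowest value in the ZT18 library. Their summed level was 3180 to 3350 CPM at ZT0, 3270 to 3560 CPM at ZT6, 3110 to 3200 CPM at ZT12 and 2300 CPM at ZT18, and without ZT18 0 of them were called in the edgeR test. With all 4 times, 6 had an unadjusted p under 0.05, DESeq2 called 6, and edgeR called 1 without library B at ZT0, A at ZT12 or B at ZT12 and 5 without C at ZT0. Outside the 10 listed markers, the hemocyte gene nimC1 was also called, with a peak at ZT6 (adjusted p = 0.00611). It had 23.5 CPM at ZT18 and 39 to 58.4 CPM at the other times. How far the number of blood cells differed in the ZT18 sample was not tested. Of 9 fat body markers 2 were called (22.2%), both with a peak at ZT6, and 0 without library B at ZT0, A at ZT6, or B or C at ZT12. Of 8 tracheal markers 6 were called (75%, against 10.9% of all genes), spread over all 4 peak times, with 3 called without ZT18, 2 without libraries A and B at ZT12 and 1 with the O1 libraries fitted alone. Of 9 glia markers 4 were called (44.4%), and 1 to 6 with any 1 O1 library of ZT0, ZT6 or ZT12 left out. Of 41 cuticle markers 10 were called (24.4%), and 6 to 10 in the same runs.

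**Figure D4:**
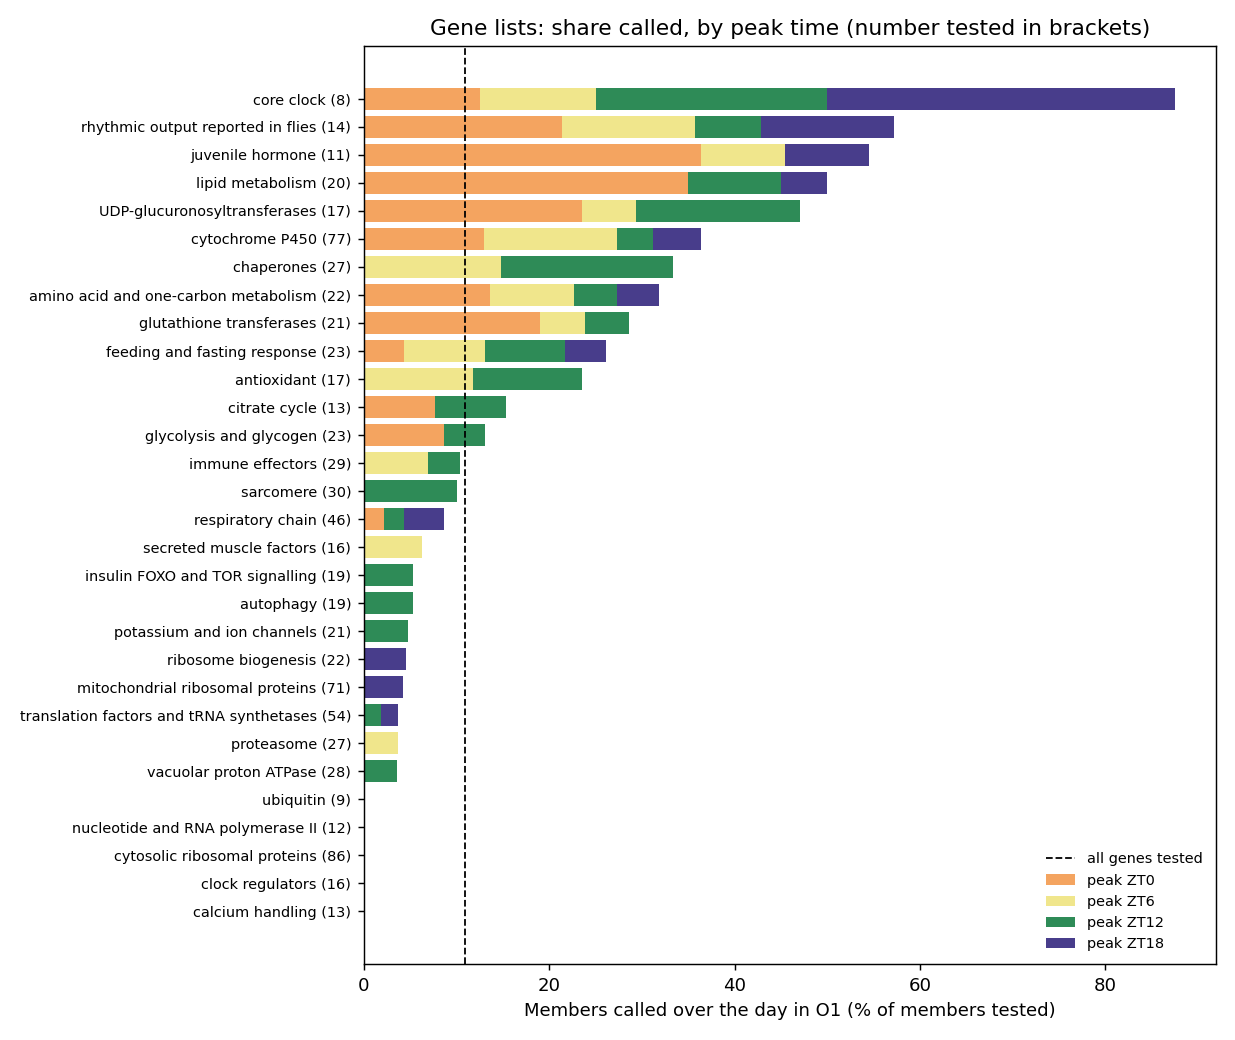
Share of the tested members of each gene list that were called over the day in O1 (horizontal axis, percent), coloured by the time of the highest mean, with the number tested in brackets and a dashed line at the share of all genes. The core clock stands at 87.5% and cytochrome P450 genes at 36.4%, whereas sarcomere genes are at 10% and cytosolic ribosomal proteins at 0.

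The 5 genes most like tim over the 10 O1 libraries, by Pearson's r of log2 CPM among genes with a mean of at least 2 log2 CPM, were CG34452 (0.97, not called in 11 of 20 alternatives), beat-IIa (0.963), CG9782 (0.96), Cht7 (0.959) and CG42361 (0.958). They are given as a description over 10 libraries that share 4 times. Cht7, a chitinase gene, had the largest amplitude of them, with 9.24 to 10.2 CPM at ZT0, 6.42 to 8.68 CPM at ZT6, 14.8 to 16.7 CPM at ZT12 and 22.8 CPM at ZT18 (1.57 log2, adjusted p = 2.48e-08). The others spanned 0.44 to 1.09 log2.

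The O1 course was set beside the other day courses to see which of its timed genes were timed there. In B3 1382 genes were called (11.2%), of which 594 were also called in O1, 44.3% of the O1 calls and 43.0% of the B3 calls, and 60.4% of the shared genes had the same peak time. In O3 2093 genes were called (17%), of which 831 were shared, 62.0% of the O1 calls and 39.7% of the O3 calls, with 70.0% at the same peak time. In mhc flies, fitted on their own, 1971 of 11074 genes were called (17.8%). Of the 10999 genes tested in both fits, 532 were called in both, 39.9% of the O1 calls and 27.1% of the mhc calls, with 47.0% at the same peak time. O1 and B3 were compared in the same model, and their different numbers of libraries at ZT6 and ZT18 also set what could be called.

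The O1 profile itself differed from that of B3 in 172 genes (1.40%), 129 of them called over the day in O1 and 39 in B3 alone. Among the 8 core clock genes 4 differed. tim had lower levels in O1 at ZT0, higher levels at ZT12 and a higher level at ZT18, where O1 had 1 library. Its level was 228, 231 and 228 CPM in O1 at ZT0, against 309 to 340.1 CPM in B3, and 884, 932 and 876 CPM in O1 at ZT12, against 632 to 671 CPM in B3, with no overlap at either time (adjusted p = 6.16e-05 for the difference in profile). cry held 110 to 125 CPM at ZT12 in O1, against 149 to 171 CPM in B3, with no overlap, while at ZT0 the O1 libraries held 184 to 198 CPM and the B3 libraries 179 to 183 CPM (adjusted p = 0.00416). cwo peaked at ZT12 in O1, with 90.9 CPM at ZT18, against a B3 peak of 142 and 143 CPM at ZT18 (adjusted p = 0.0263). per also differed (adjusted p = 0.0456), with 58.4 to 61.2 CPM at ZT12 in O1 and 44.6 to 46.8 CPM in B3.

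The 5 genes of smallest p in that comparison all peaked at ZT12 in O1. cbt (cabut), a transcription factor of the sugar response, reached 257, 239 and 219 CPM at ZT12 in O1, against 107 to 128 CPM in B3, while at ZT18 the O1 library had 94.5 CPM and the B3 libraries 107 and 110 CPM. The ZT12 rise in O1 had no counterpart of that size in B3 (adjusted p = 6.16e-05). cln3, named for a lysosomal membrane protein, stood at 115, 97.5 and 109 CPM at ZT12 and 46.5 CPM at ZT18 in O1, against 57.7 to 63.5 CPM and 93.1 and 79.6 CPM in B3, so the order of these times was turned round (adjusted p = 4.17e-05). l(1)G0148 stood at 55.0 to 61.1 CPM at ZT0 and 70.7 to 75.7 CPM at ZT12 in O1, against 98.2 to 105 CPM and 67.3 to 73.9 CPM in B3 (adjusted p = 4.58e-06). CG12268 and CG14186 had their highest mean at ZT12 in O1 and at ZT0 in B3 (adjusted p = 3.23e-05 and 6.02e-05). Among the 172 genes, 18 had their highest mean at ZT12 in O1 and ZT18 in B3, and 18 at ZT12 and ZT0. A further 27 had it at ZT18 and ZT0, 16 at ZT18 and ZT12, and 15 at ZT6 and ZT12. Others kept the same peak time in both strains, 24 at ZT0, 4 at ZT6, 5 at ZT12 and 7 at ZT18. An O1 peak at ZT18 rests on 1 library. The count of 172 genes became 86, 88 and 101 without O1 libraries B, A and C at ZT12. It was 110 without O1 library B at ZT0, and 105 and 96 without B3 libraries A and C at ZT12.

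Against O3 the profile differed in 6 genes (0.0488%), among them CG6870, CG13101, salr, GstE5 and tim. tim had 228 to 231 CPM in O1 at ZT0, against 284 to 321 CPM in O3 (adjusted p = 0.0343 for the profile), whereas cbt, cln3 and cwo had their highest mean at ZT12 in both strains. CG6870 was highest at ZT18 in O1 with 12.2 CPM and at ZT0 in O3 with 20.5 to 23.4 CPM (adjusted p = 0.00284). At an unadjusted p under 0.05 1502 genes differed. The count moved with single libraries. It was 728 without O3 library A at ZT6, 72 without O1 library C at ZT12, 43 without O1 library C at ZT0, 31 without O3 library B at ZT18 and 13 without O1 library B at ZT6. It was 10 without O3 library A at ZT12 or C at ZT18, and 3 without any 1 of O1 library A at ZT0, O1 library A or B at ZT12, O3 library A at ZT0 and O3 library B at ZT12.

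**Figure D5:**
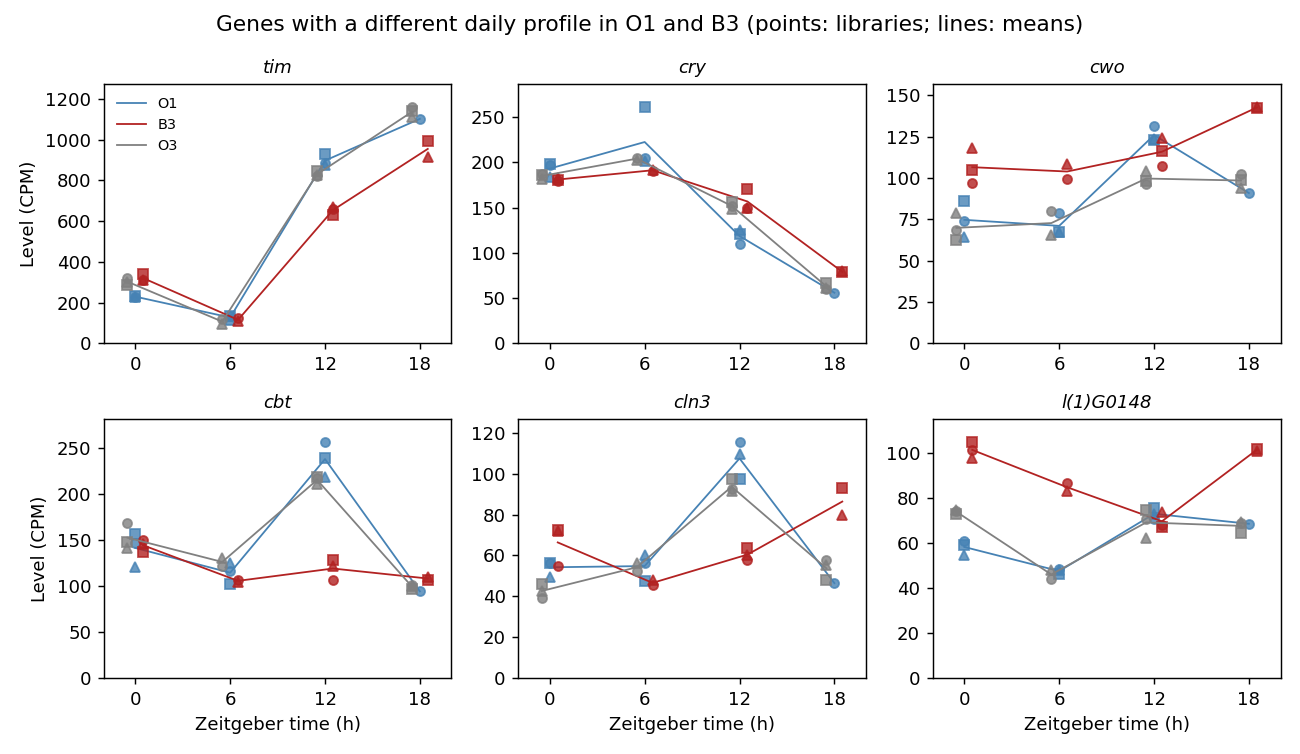
Level in CPM (vertical axes, from 0) against zeitgeber time in hours for 6 genes in O1, B3 and O3 (points are libraries, lines join the means, strains are offset slightly along the axis). At ZT12 the O1 libraries of cbt lie at 219 to 257 CPM and those of B3 at 107 to 128 CPM.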

How the data were processed

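Skeletal muscle RNA was isolated with Trizol and made into stranded mRNA libraries, per the labels. The authors deposited 1 raw count table per library, without normalization. The submitters' processing notes name BWA, STAR, HTSeq and dm3, without versions or roles, and neither an annotation nor a strand setting. Reads of overlapping or antisense genes can therefore be shared. The 5 rows that name no gene stayed out of totals and tests, and reads in no feature came to 7.11 to 12.5% of O1 reads. R 4.3.3 and edgeR 4.0.16 were used (filterByExpr, TMM factors of 0.956 to 1.06), in 1 model with a mean per strain and time over the 31 libraries of the strain day course (19 residual degrees of freedom, common coefficient of variation 0.148). Adjusted p-values come from edgeR's quasi-likelihood F-test, adjusted by Benjamini-Hochberg over all genes tested and called under 0.05. The single O1 library at ZT18 was tested with the spread of the other groups. Time contrasts are later minus earlier. log2 CPM used a prior count of 0.5. The mhc libraries were fitted separately. Floors of 3 counts cover counting error only. Sequences and genome coordinates were not used here.

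Named genes are the 8 core clock genes, the 5 called genes of largest amplitude per peak time (mean log2 CPM of at least 2, libraries at the peak above all at the lowest time), up to 3 called members of smallest p per list, the 5 genes of smallest p per strain difference and the 5 most like tim. The other genes named were chosen after their values were seen. The genes and lists were chosen with earlier results of these data known. Alternatives were other scaling factors, no filter, DESeq2 1.42.0, O1 alone, no ZT18, a cosine fit, a replicate block, leaving out each library, and, added after seeing the data, leaving out A and B at ZT0 or ZT12 and robust estimation. The tests were tested on simulated data.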

Additional observations from a re-analysis of the deposited data

Results flagged for a closer look

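The joint test of strain by time called 172 genes between O1 and B3 and 6 between O1 and O3, which drew attention because the same contrast over the day differed between strains. Adjusted p-values of that edgeR test against B3 were 4.58e-06 for l(1)G0148, 3.23e-05 for CG12268, 4.17e-05 for cln3, 6.02e-05 for CG14186 and 6.16e-05 for cbt. Against O3 they were 0.00284 for CG6870, 0.0115 for CG13101, 0.0137 for salr, 0.0243 for GstE5 and 0.0343 for tim. O1 had 1 library at ZT18, and B3 and O3 had 2 at ZT6.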

How the results depend on the processing

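None of the 92 named genes reversed in direction in an alternative run that scored it. The directions came from the highest and lowest means of these same libraries, most of which each run kept. A reversal could therefore hardly arise, and its absence says little. Of the 92 named genes, 47 were called in every run that scored them. Counts of genes were not scored for reversal. The order of the ZT12 to ZT6 and ZT18 to ZT6 counts turned without library A and without A and B at ZT12. The run without ZT18 scored only the 41 genes whose highest and lowest means both lay at other times. With O1 alone the time-of-day count was 573 (peaks 229, 148, 104 and 92; amplitude at least 1 in 247, of which 73 at ZT6 and 27 at ZT18), the wave 524, the 12-hour term 18, and the pairs 53 (ZT6 and ZT0), 406 (ZT12 and ZT0), 155 (ZT18 and ZT0), 433 (ZT12 and ZT6), 171 (ZT18 and ZT6) and 67 (ZT18 and ZT12). The DESeq2 test gave 418 peaks at ZT18, 250 12-hour terms, 549 B3 and 275 O3 differences, and 546, 535, 837 and 367 genes for ZT6 to ZT0, ZT18 to ZT0, ZT18 to ZT6 and ZT18 to ZT12. DESeq2 size factors gave 11 O3 differences. Without ZT18 there were 76 B3 and 21 O3 differences. The wave test left 88 large-amplitude peaks at ZT6, and the cosine peak 23 at ZT12. Without A and B at ZT0 there were 93 B3 and 2 O3 differences, 211 peaks at ZT0 (74 large), 668 waves, 48 12-hour terms and 58, 214 and 154 genes for ZT6, ZT12 and ZT18 against ZT0. Without A and B at ZT12 there were 21 B3 and 0 O3 differences, 628 genes (peaks 237, 139, 110 and 142; large 201, with 101 at ZT0 and 41 at ZT6), 530 waves, 39 12-hour terms and 166, 130 and 49 genes for ZT12 to ZT0, ZT12 to ZT6 and ZT18 to ZT12; 2 libraries fewer alone lower such counts. Replicate letters did not pair libraries (r of deviations -0.278 to 0.188, 1 of 9 libraries closest to its own letter); the replicate block gave 1108 genes, 85 B3 and 1 O3 differences, 66 12-hour terms and 195, 328 and 115 genes for ZT18 against ZT0, ZT6 and ZT12. Leaving out 1 library gave 942 to 1398 genes (peaks at ZT0 285 to 424, ZT6 234 to 466, ZT12 197 to 304, ZT18 199 to 278; large 281 to 408, by peak 96 to 186, 86 to 176, 25 to 39 and 36 to 45), 826 to 1233 waves, 50 to 130 12-hour terms, 86 to 210 B3 and 3 to 728 O3 differences, and 169 to 345 (ZT6 to ZT0), 392 to 842 (ZT12 to ZT0), 222 to 370 (ZT18 to ZT0), 427 to 1081 (ZT12 to ZT6), 479 to 577 (ZT18 to ZT6) and 104 to 258 (ZT18 to ZT12) genes. The cause of these shifts was not tested. The single O1 library at ZT18 was not among those left out for these ranges. A single library at ZT18 limits every value of that time.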
